A study of Homo sapiens with 16 samples.

Results

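The binding of RAD21 was compared with that of eGFP-YAP in HEK293 cells before osmotic stress. The comparison used 4 of 16 CUT&Tag libraries, 2 for RAD21 and 2 for eGFP-YAP, all from vehicle cells. HEK293 is a line of human embryonic kidney cells, and these cells carried the genotype eGFP-YAP, a green fluorescent protein fused to YAP. The labels do not say how the fusion gene is driven or whether the cells are 1 clone. RAD21 was read with an antibody against the protein itself and eGFP-YAP with an antibody against GFP. The series also holds CTCF and H3K27ac libraries from the same cells, and for each of the 4 targets 2 libraries after 200 mM sorbitol for 1 h. The design text describes a serum starvation of 1 h before sorbitol. A library made with an unspecific control antibody was not analysed here. Counts were taken over 1 set of peak intervals shared by all libraries. Of 74404 intervals, 73975 lay on chromosomes 1 to 22 or X and outside the YAP1 gene, and these were kept. The contrast asks which sites are particular to cohesin and which carry the signal common to open chromatin. Nothing in the labels says that the 2 replicates of a target came from separate cultures, so the p-values measure only the spread between these libraries.

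RAD21 is the subunit that closes the cohesin ring. Cohesin extrudes loops of DNA and halts at CTCF, a zinc finger protein that binds a long directional motif, so cohesin accumulates at CTCF sites far from genes as well as near them. YAP is the transcriptional coactivator at the end of the Hippo pathway. It does not bind DNA itself and reaches chromatin mainly through TEAD factors, often at enhancers that also bind AP-1. The transposase that CUT&Tag tethers to an antibody also cuts accessible DNA at a low rate, so active promoters can give signal with any antibody. H3K27ac marks active promoters and enhancers.

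The sequences below come from called intervals that held the CTCF consensus or the TEAD motif, and show where those motifs lie. They do not stand for every call, since 7 of the 12 intervals named for RAD21 by size or certainty held no consensus. Coordinates are hg38, sequences are written 5′ to 3′ on the strand named, and capitals mark the CTCF consensus or the copies of the TEAD motif GGAATG. Where copies overlap by 1 base, as in the KSR1P1 stretch, only those that do not overlap a marked one are in capitals. The CTCF consensus, with at most 1 mismatch, was found within 150 bases of the centre of 16.6% of the 73975 intervals, and GGAATG in 14.5%. The first 5 lie in intervals higher for RAD21. They are in an intron of USP2-AS1 (chr11:119481504-119481577, plus strand, 1 mismatch), in an intron of TMEM179 near C14orf180 (chr14:104564165-104564238, minus strand, 1 mismatch), between genes near AKAP1 (chr17:57131116-57131189, plus strand, no mismatch), between genes near a Y_RNA gene (chr11:10735940-10736013, minus strand, no mismatch) and in CCDC80, from the list of YAP targets (chr3:112643052-112643125, plus strand, 1 mismatch).
USP2-AS1: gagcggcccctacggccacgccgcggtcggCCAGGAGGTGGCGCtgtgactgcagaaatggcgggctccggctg
TMEM179: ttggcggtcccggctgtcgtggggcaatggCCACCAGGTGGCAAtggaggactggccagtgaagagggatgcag
AKAP1: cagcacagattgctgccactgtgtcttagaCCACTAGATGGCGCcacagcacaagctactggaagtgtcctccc
Y_RNA: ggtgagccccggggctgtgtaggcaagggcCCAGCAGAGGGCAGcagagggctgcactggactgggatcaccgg
CCDC80: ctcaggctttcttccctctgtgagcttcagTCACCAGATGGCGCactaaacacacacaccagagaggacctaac

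The other 6 come from intervals higher for eGFP-YAP, and the CLPTM1L and KSR1P1 stretches begin before the first base of their interval. RRAS (chr19:49640726-49640875, minus strand) is the stretch beside a promoter. The ANKRD1 stretches lie just upstream of the start site (chr10:90921138-90921287, minus strand) and in an interval whose nearer edge is 9127 bases upstream (chr10:90930614-90930763, plus strand), and were chosen after their values were seen, because ANKRD1 is a textbook YAP target. The stretches in introns of SYNE1 (chr6:152491025-152491174, minus strand) and CLPTM1L (chr5:1327038-1327187, minus strand) hold repeated units in which the TEAD motif recurs. That near KSR1P1 (chr10:41859668-41859817, plus strand) is made of GGAAT units, the unit of satellite repeats, and lies near a centromere.
RRAS: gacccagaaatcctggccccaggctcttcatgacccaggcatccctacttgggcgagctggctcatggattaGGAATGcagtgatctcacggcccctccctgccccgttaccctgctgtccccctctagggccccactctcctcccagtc
ANKRD1, start site: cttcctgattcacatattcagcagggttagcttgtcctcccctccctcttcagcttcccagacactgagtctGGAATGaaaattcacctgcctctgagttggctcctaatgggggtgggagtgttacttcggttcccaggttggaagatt
ANKRD1, upstream: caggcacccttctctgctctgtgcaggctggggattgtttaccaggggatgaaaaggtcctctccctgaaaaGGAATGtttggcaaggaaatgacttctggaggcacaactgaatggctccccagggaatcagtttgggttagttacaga
SYNE1: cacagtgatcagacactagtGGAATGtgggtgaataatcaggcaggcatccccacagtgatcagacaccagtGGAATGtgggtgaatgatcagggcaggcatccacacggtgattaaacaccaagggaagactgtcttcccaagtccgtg
CLPTM1L: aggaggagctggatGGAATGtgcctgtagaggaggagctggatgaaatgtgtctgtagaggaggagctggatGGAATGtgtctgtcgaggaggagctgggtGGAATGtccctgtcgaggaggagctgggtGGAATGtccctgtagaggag
KSR1P1: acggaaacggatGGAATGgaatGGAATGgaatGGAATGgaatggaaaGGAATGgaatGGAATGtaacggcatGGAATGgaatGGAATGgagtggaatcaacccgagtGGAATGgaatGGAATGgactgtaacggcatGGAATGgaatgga

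The RAD21 libraries were the shallowest of the vehicle libraries. Over the 73975 intervals they held 1.34 and 0.602 M counts (M, 1e6), against 1.96 and 1.65 M for eGFP-YAP. Mitochondrial intervals, which were left out, took 34.3% and 38.5% of all counts for RAD21 and 36.5% and 38.1% for eGFP-YAP, against 2.03% and 2.08% for H3K27ac. The YAP1 gene, also left out, took 6.54% and 10.1% of the RAD21 counts and 11.6% and 11.8% of the eGFP-YAP counts, so it was high for both antibodies. A pseudogene, YAP1P1, stayed in the set and held 1.01% and 1.62% of the kept RAD21 counts and 1.69% and 1.84% of those of eGFP-YAP. Together, 71 intervals that each exceeded 0.1% of a library held 15.6% and 24.8% of the kept RAD21 counts and 15.9% and 18.1% of the kept eGFP-YAP counts. The tissue label was checked on promoter acetylation. Summed over the intervals within 1 kb of its start sites, each of the 8 HEK293 marker genes exceeded 17.02 H3K27ac counts per 1e6 (CPM), the median of single promoter intervals, with a level over the list of 612 and 587 CPM in the 2 libraries. None of 6 blood genes and none of 4 liver genes did, at 15.7 and 13.5 CPM and at 0.485 and 2.44 CPM summed, and PTPRC, CD3E, HBB, GATA1, ALB, APOA1 and FGB had no interval. Of 8 colon cancer genes, 3 (CDX2, LGR5 and EPCAM) exceeded it, at 224 and 230 CPM summed.

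RAD21 counts lay further from genes than those of eGFP-YAP, and more of them lay on CTCF motifs. These shares are taken inside each library, so they do not depend on how libraries are scaled to each other. Distal intervals with the CTCF consensus, more than 1 kb from any annotated start site, held 12.8% and 11.3% of the counts in the RAD21 libraries and 4.94% and 4.77% in the eGFP-YAP libraries. The groups did not overlap, with means of 12.0% ± 1.07 and 4.85% ± 0.117 (SD, n = 2), a ratio of 2.48. CTCF itself stood at 24.7% ± 0.552 and H3K27ac at 2.83% ± 0.0105 (n = 2 each), so eGFP-YAP lay nearer to H3K27ac and RAD21 between the extremes. Promoter intervals, within 1 kb of a start site, went the other way. They held 52.7% and 49.5% of the RAD21 counts and 70.3% and 69.4% of the eGFP-YAP counts, beside 80.4% and 80.4% for H3K27ac and 45.0% and 43.8% for CTCF. Distal intervals without the consensus held 34.5% and 39.2% for RAD21 and 24.7% and 25.8% for eGFP-YAP. Promoters with the consensus did not separate the targets, at 7.87% and 6.84% for RAD21 and 7.18% and 6.98% for eGFP-YAP. With 2 libraries a side, an exact permutation test (two-sided) cannot go below p = 0.33, the value for each class whose groups did not overlap. The plot of counts by class shows the step from CTCF through RAD21 and eGFP-YAP to H3K27ac.

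**Figure D1:**
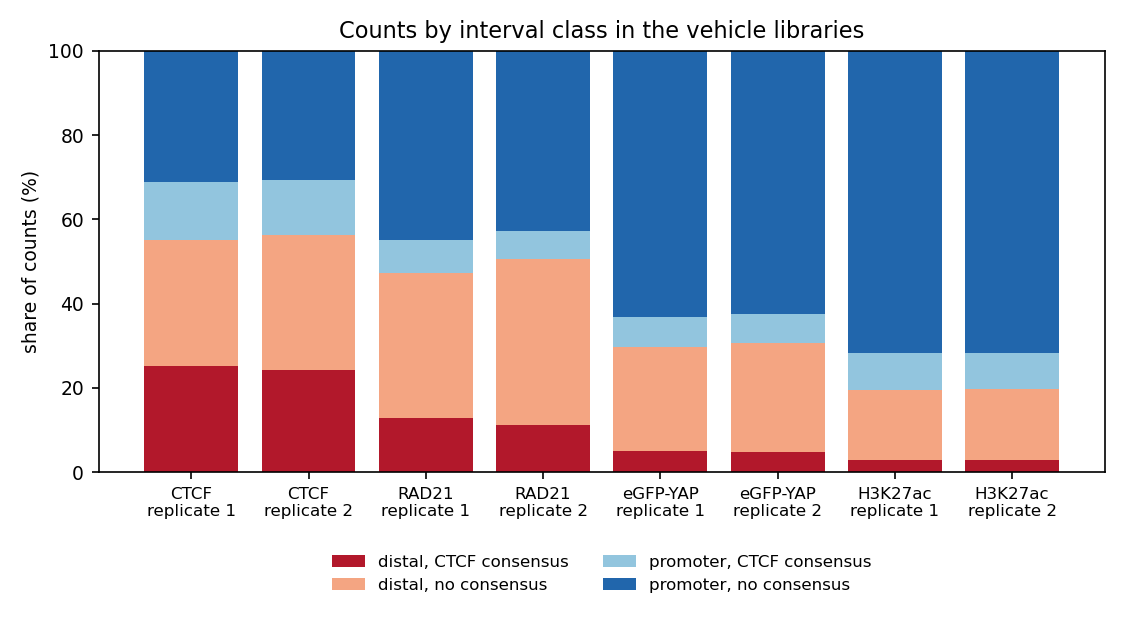
Share of the counts of each vehicle library (vertical axis, %) that falls in 4 classes of interval, for 2 libraries of each target. The share in distal intervals with the CTCF consensus falls from 25.1% and 24.3% for CTCF to 12.8% and 11.3% for RAD21, 4.94% and 4.77% for eGFP-YAP and 2.84% and 2.82% for H3K27ac.

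Interval by interval, 32139 of the 73975 intervals had enough counts to test. At an adjusted p under 0.05 (edgeR's quasi-likelihood test, Benjamini-Hochberg over all tested intervals), 6663 were higher for RAD21, 20.7% of those tested, and 5103 were higher for eGFP-YAP, 15.9%. Both RAD21 libraries lay above both eGFP-YAP libraries at 11788 intervals (36.7% of those tested), and the reverse held at 11099 (34.5%). With 2 libraries a side such orders also arise by chance, and 6645 and 5102 of these intervals were called. In the intervals called for RAD21 the median levels were 20.8 and 21.5 CPM in the RAD21 libraries against 4.57 and 4.16 CPM in the eGFP-YAP libraries. In those called for eGFP-YAP they were 24.8 and 21.5 CPM for RAD21 against 56.0 and 55.4 CPM for eGFP-YAP. Per interval, median RAD21 was similar in the 2 sets, but the eGFP-YAP calls were wider (median 1162 bases against 560). These levels come from the counts that made the calls, so they describe the calls and test nothing. The difference was 2-fold or more at 97.4% of the RAD21 calls and at 78.6% of the eGFP-YAP calls. Which direction has more calls depends on the count filter, on the libraries used and on the scaling between 2 different antibodies. With no count filter 4874 intervals were higher for RAD21 and 7766 for eGFP-YAP. With libraries scaled to the weakest 25% of intervals the counts were 3668 and 10915. Scaled to promoters without the consensus they were 10426 and 1372. These scalings moved the median log2 fold change of all tested intervals from 0.01 to -0.59 and 0.57, so directions below are relative to the main scaling (TMM). With any 1 of the 4 libraries left out, fewer intervals were called for RAD21 than for eGFP-YAP, in fits that leave 1 library in a group.

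The class of an interval went with its direction. Of 4790 tested distal intervals with the consensus, 2665 were higher for RAD21 (55.6%) and 17 for eGFP-YAP, with a median log2 fold change of 1.67. Their median levels were 17.6 and 17.6 CPM in the RAD21 libraries and 5.72 and 5.54 CPM in the eGFP-YAP libraries. Of 9921 distal intervals without the consensus, 2694 were higher for RAD21 and 717 for eGFP-YAP, with a median of 0.63. Of 2608 promoters with the consensus, 649 were higher for RAD21 and 338 for eGFP-YAP, with a median of 0.32. Of 14820 promoters without it, 655 were higher for RAD21 and 4031 for eGFP-YAP (27.2%), with a median of -0.59 and median levels of 20.0 and 19.6 CPM for RAD21 and 28.0 and 27.7 CPM for eGFP-YAP. The order of the 4 classes was the same under the 4 other scalings. With GC-corrected offsets the middle classes changed places, at 0.48 for distal intervals without the consensus and 0.56 for promoters with it. Under the weakest 25% scaling promoters with the consensus had a median of -0.28 and distal intervals without it 0.04. The median of promoters was lower than that of distal intervals by 1.55 (SD 0.121 over the 4 pairs of a RAD21 and an eGFP-YAP library), and that of consensus intervals higher than that of the rest by 1.55 (SD 0.0339). Among the 5393 intervals with a mean of at least 50 counts these differences were -0.59 and 0.43, same in direction and smaller. The 4 pairs share libraries, so their SD is not that of 4 separate values. For the consensus the pairs ran from 1.478 to 1.547, below the fitted 1.551.

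**Figure D2:**
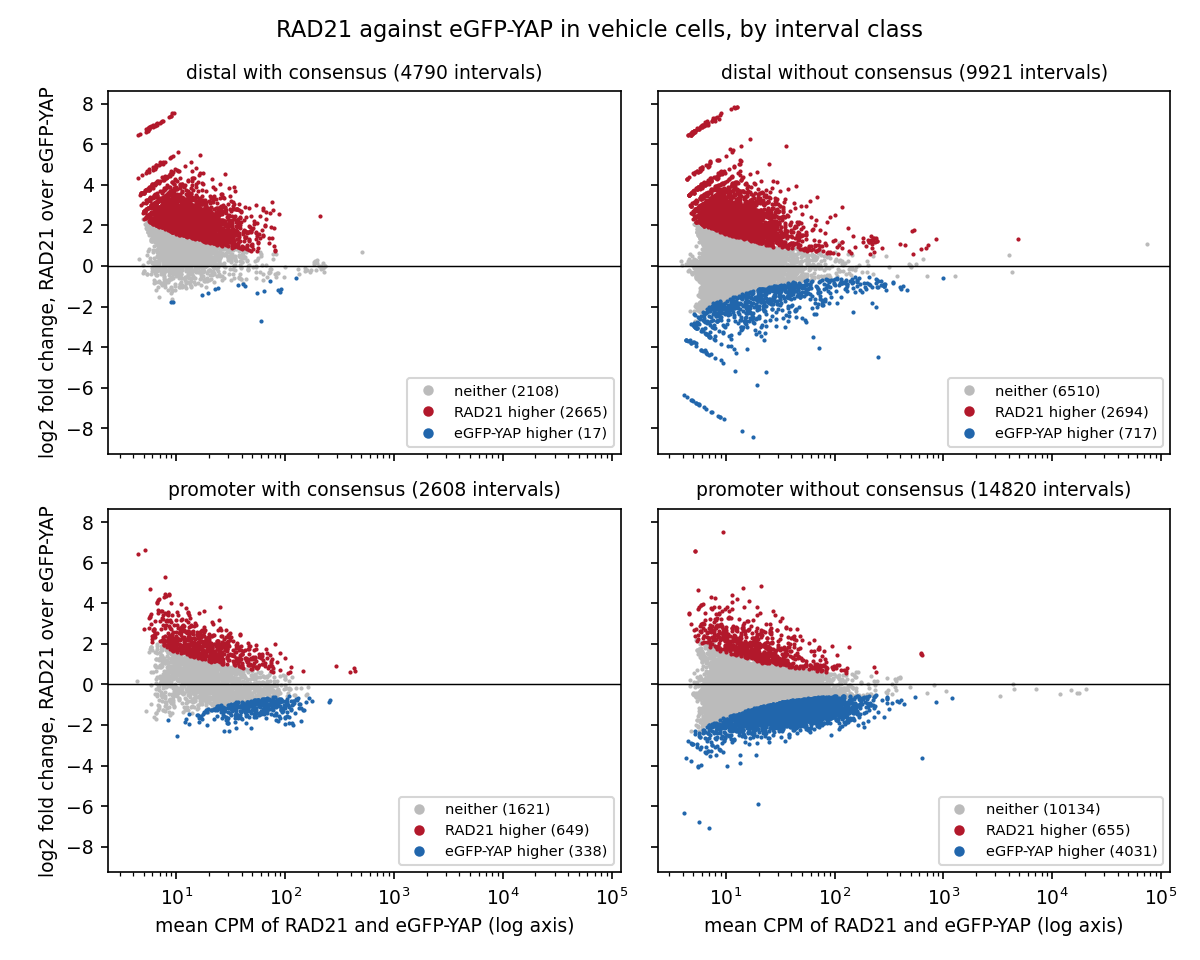
Log2 fold change of RAD21 over eGFP-YAP (vertical axis) against mean CPM (horizontal log axis) for the 32139 tested intervals in 4 classes, 1 point per interval, coloured by call. Distal intervals with the consensus have 2665 calls for RAD21 and 17 for eGFP-YAP, and promoters without it 655 and 4031; the separate slanted lines at the edges are intervals with 0 or a few counts in 1 target.

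How well the consensus matched went with the difference at promoters more than at distal sites. Distal intervals with a perfect consensus (1446) had a median of 1.64 and those with 1 mismatch (3344) 1.69. Promoters with a perfect consensus (547) had 192 calls for RAD21 and 22 for eGFP-YAP at a median of 0.88, and those with 1 mismatch (2061) had 457 and 316 at 0.13. Of 14394 intervals that covered a start site, 646 were called for RAD21 and 4158 for eGFP-YAP. Of 3034 at 1 to 1000 bases from a start site, which the promoter class also holds, 658 and 211 were called. Beyond 1 kb the share called for RAD21 was 34.7% to 10 kb, 39.1% from there to 100 kb and 28.1% beyond 100 kb.

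The CTCF and H3K27ac libraries, which the comparison did not use, ordered the same intervals. In the 25% of intervals with least H3K27ac, 51.8% of intervals were higher for RAD21 and 3.98% for eGFP-YAP. In the 25% with most the shares were 2.12% and 40.0%, and the median log2 fold change went from 1.77 to -0.73. By CTCF level the share higher for RAD21 went from 5.59% in the lowest 25% to 37.7% in the highest 25%, and the median from -0.23 to 0.78. Where both were extreme the contrast was widest: of 1943 intervals in the highest 25% for CTCF and the lowest 25% for H3K27ac, 1235 were higher for RAD21 and 4 for eGFP-YAP. Of 2131 intervals in the highest 25% for both, 145 were higher for RAD21 and 865 for eGFP-YAP. Distal intervals without the consensus followed CTCF level too. In the highest 25% by CTCF 791 of 1473 were higher for RAD21, and in the lowest 25% 374 of 4283. Across the 32139 intervals log2 fold change correlated with CTCF level at Pearson r = 0.25 (Spearman 0.27) and with H3K27ac level at r = -0.60 (Spearman -0.63). At the 5393 intervals with a mean of at least 50 counts the values were 0.51 (Spearman 0.43) and -0.17 (Spearman -0.15). These describe intervals of the same cells, which share depth, base composition and neighbours.

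**Figure D3:**
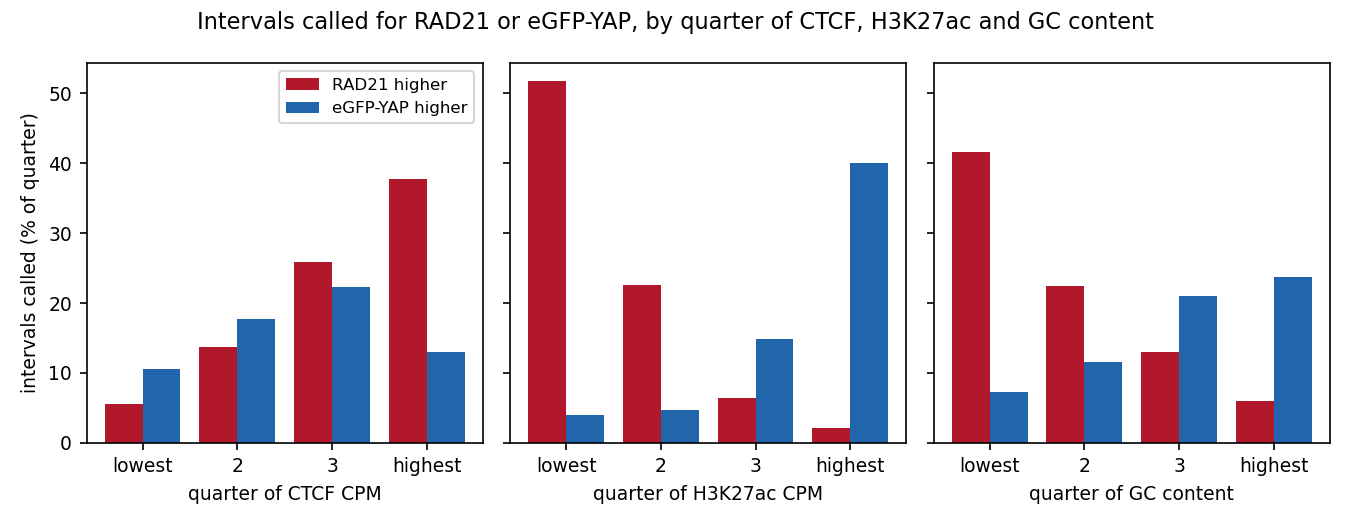
Percent of tested intervals called higher for RAD21 (red) or for eGFP-YAP (blue) in 4 bins of CTCF level, H3K27ac level and GC content, each with 25% of the intervals, under the main scaling. The RAD21 share goes from 51.8% to 2.12% across the H3K27ac bins and from 5.59% to 37.7% across the CTCF bins.

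GC content moved with the result. The median log2 fold change was 1.30 in the 25% of intervals with lowest GC and -0.47 in the 25% with highest GC. Within distal intervals with the consensus it went from 2.01 to 0.89 over the same bins, and within promoters without it from -0.14 to -0.59. In the middle bins the medians of these classes were 1.51 against -0.59 and 1.22 against -0.64. With GC-corrected offsets the medians were 1.29 for distal intervals with the consensus and -0.22 for promoters without it.

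Of the 12 intervals named for RAD21 by size or certainty, 11 were distal and 5 held the CTCF consensus. The 6 largest differences had at most 4 eGFP-YAP counts in a library. In the USP2-AS1 intron (chr11:119480991-119481795) the RAD21 libraries had 41 and 16 counts and the eGFP-YAP libraries 2 and 0, which makes 32.1 CPM ± 1.05 against 0.572 ± 0.809 (SD, n = 2). The ratio was 51.7 with an exact 95% interval for counting error of 13.7 to 437. In the TMEM179 intron (chr14:104563914-104564457) the counts were 43 and 15 against 2 and 2, a ratio of 26.3 (9.73 to 99.7). Both intervals had strong CTCF, at 46.9 and 43.2 CPM, and little H3K27ac, at 3.57 and 2.27 CPM. A different interval had neither. The one in an intron of SCML4 (chr6:107782958-107783432) gave 29 and 22 counts for RAD21 and 1 and 0 for eGFP-YAP, a ratio of 92.4 (15.9 to 3722), with 0 CPM of CTCF and 0.892 CPM of H3K27ac. It held no consensus, and with sorbitol all 4 libraries of both targets had 0 counts there. Intervals near BNIP1 (17 and 31 against 3 and 1 counts), ENSG00000230121 (21 and 41 against 4 and 0) and in an intron of ENSG00000289997 (32 and 29 against 4 and 0) also lacked the consensus, with CTCF between 8.31 and 26.2 CPM.

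The intervals with the smallest p had more counts. Near AKAP1 (chr17:57130895-57132699), 14762 bases from a start site and with a perfect consensus, RAD21 gave 361 and 216 counts and eGFP-YAP 129 and 74. That is 356 CPM ± 94.8 against 62.5 ± 15.9 (n = 2) and a difference of 2.48 ± 0.24 on the log2 scale (SE throughout, adjusted p = 1.71e-05), with CTCF at 239 CPM. Near LIF, a cytokine gene, the interval chr22:30255745-30256451 gave 137 and 54 counts for RAD21 and 23 and 14 for eGFP-YAP, with CTCF at 201 CPM and a log2 difference of 3.21 ± 0.30 (adjusted p = 1.16e-05). The interval with the smallest p was between genes at chr1:235093206-235094374, with a consensus of 1 mismatch, CTCF at 102 CPM and 164 and 72 counts against 25 and 24 (3.13 ± 0.27, adjusted p = 4.28e-06). The LIF interval held no consensus despite its CTCF level. The Y_RNA interval at chr11:10735572-10736246 gave 136 and 57 against 26 and 22 counts with CTCF at 155 CPM. The interval at chr21:8376471-8377673 (204 and 91 against 49 and 46 counts) lies among ribosomal DNA copies on the short arm, where reads can fit several copies, and its value is uncertain. An intron of EHMT1 near MIR602 (chr9:137845071-137846388) gave 182 and 136 counts against 41 and 42 (2.92 ± 0.29, adjusted p = 1.71e-05), with CTCF at 29.99 CPM, beside a median of 28.2 CPM over the RAD21 calls, and no consensus. It holds 21 copies of GGAAT, 5 of them in the central window, and so belongs to the repeat intervals described further on, whose values are uncertain.

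The intervals higher for eGFP-YAP were mainly active promoters. Of the 5103, 85.6% were promoters, against 19.6% of the RAD21 intervals, and their median H3K27ac was 54.2 CPM against 2.60 CPM. Their median GC was 63.2% against 52.1%, and their median width 1162 bases against 560. Among tested promoters, short motifs of promoter factors were more frequent in the eGFP-YAP calls than in the RAD21 calls, counted within 150 bases of the centre on both strands. SP/KLF (GGGCGGGG) stood at 33.3% of 4369 against 11.4% of 1304, with 26.96% of all 17428 tested promoters. The ETS motif CCGGAAGT stood at 4.94% against 0.537% (3.37% of all), NRF1 (GCGCATGC) at 3.46% against 0.383% (2.11%), YY1 (AAGATGGC) at 4.28% against 0.844% (2.89%) and CRE (TGACGTCA) at 1.85% against 0.0767% (1.22%). The TEAD motif stood at 10.1% against 14.3% (10.6% of all) near the centre, but at 41.1% against 31.2% (35.2% of all) in whole intervals, so its direction at promoters depends on the window. The CTCF consensus in the same window stood at 1.79% of the eGFP-YAP promoters and 38.2% of the RAD21 promoters (8.18% of all).

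Ribosomal protein and histone genes leaned to eGFP-YAP. Of 182 tested intervals within 10 kb of ribosomal protein genes, 78 were higher for eGFP-YAP (42.9%) and 9 for RAD21 (4.95%), with a median of -0.83. Over all tested intervals these shares were 15.9% and 20.7%, and over promoters without the consensus 27.2% and 4.42%. The RAD21 call with the smallest p in this list was a distal consensus site 8619 bases from the RPS24 start, with 56 and 21 against 14 and 8 counts (2.64 ± 0.43, adjusted p = 4.54e-04). Of 56 intervals at replication-dependent histone genes, 26 were higher for eGFP-YAP (46.4%) and 0 for RAD21, with a median of -1.10. The example with the smallest p was the H2AC25 promoter, with 78 and 24 against 234 and 181 counts (-1.20 ± 0.23, adjusted p = 0.0014). Both lists are largely promoters without the consensus (129 and 48 of their tested intervals), whose median over all genes was -0.59. Scaled to such promoters, the counts for eGFP-YAP and RAD21 became 27 and 22 for ribosomal protein genes and 4 and 2 for histone genes, with medians of -0.26 and -0.53.

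Away from promoters 734 intervals were higher for eGFP-YAP, and GGAATG stood near the centre of 41.0% of them. It stood in 15.6% of the distal intervals higher for RAD21 and in 16.5% of all 14711 tested distal intervals. The AP-1 motif TGANTCA stood in 14.6%, 7.60% and 9.33% of the same sets, and the CTCF consensus in 1.09%, 43.7% and 28.5%. These distal eGFP-YAP intervals had less acetylation than the promoter ones, with a median H3K27ac of 5.31 CPM against 62.1 CPM. Among distal intervals the median H3K27ac was 3.89 CPM over all tested, 2.27 CPM in the RAD21 calls and 5.27 CPM in those not called. The distal eGFP-YAP intervals had little CTCF, at 5.07 CPM. The median levels were 9.27 CPM of RAD21 and 31.6 CPM of eGFP-YAP. In distal intervals without the CTCF consensus the excess of GGAATG was present in each GC bin. It went from 51.9% of the eGFP-YAP calls against 17.3% of the RAD21 calls in the lowest to 12.4% (11 of 89) against 5.71% (8 of 140) in the highest. Under the other scalings the share was 31.7% (weakest 25%) and 55.2% (promoters) of the eGFP-YAP calls in that class, against 41.3% here. In 10 bins of log2 fold change over all distal intervals, GGAATG stood in 33.4% of the bin most in favour of eGFP-YAP, in 11.6% of bin 4 and in 16.4% of the last. The CTCF consensus went from 2.72% in the first bin to 45.1% in bin 9.

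**Figure D4:**
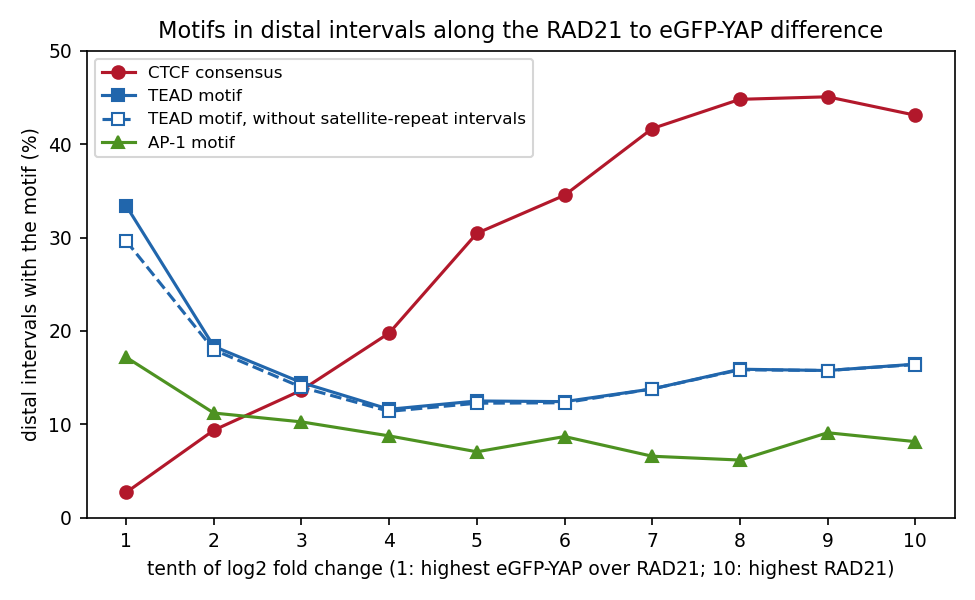
Percent of tested distal intervals that hold the CTCF consensus, the TEAD motif or the AP-1 motif near the centre (vertical axis), in 10 bins of log2 fold change from eGFP-YAP to RAD21 (horizontal axis, about 1471 intervals a bin). The TEAD share is 33.4% in bin 1, or 29.65% without satellite-repeat intervals (open squares), and 11.6% in bin 4, while the CTCF share goes from 2.72% to 45.1% in bin 9.

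Repeats made up part of this set. Among tested distal intervals, 114 had 5 or more copies of GGAAT in the central window, the unit of human satellite sequence, and 69 of these were higher for eGFP-YAP and 4 for RAD21. Without them GGAATG stood in 232 of 665 eGFP-YAP intervals (34.9%), 15.6% of the RAD21 intervals and 15.9% of all. By GC content it then stood in 43.2% against 17.5% in the lowest bin and 11.6% against 6.58% in the highest. Over all 199 such intervals, tested or not, the share of counts was 0.178% and 0.201% in the RAD21 libraries and 0.410% and 0.445% in the eGFP-YAP libraries. It was 0.0646% and 0.0683% for CTCF and 0.01765% and 0.0189% for H3K27ac, so eGFP-YAP had the highest share and its libraries did not overlap with the others. The interval near KSR1P1 (chr10:41859731-41860470) held 67 copies of GGAATG and gave 62 and 27 counts for RAD21 and 392 and 375 for eGFP-YAP (-2.25 ± 0.23, adjusted p = 2.06e-05). The interval near EMB (chr5:49601414-49602859), 809139 bases from a start site, held 136 copies and gave 115 and 48 against 630 and 587 counts. Reads from such sequence can fit many places, so these values are uncertain.

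Some sites reached larger differences. In an intron of ENSG00000258964 near HIF1A-AS3 (chr14:61755165-61755671) eGFP-YAP gave 790 and 740 counts and RAD21 35 and 4. That is 482 CPM ± 43.1 against 17.9 ± 14.3 (n = 2) and a log2 difference of -4.50 ± 0.31 (adjusted p = 1.43e-07), with CTCF at 4.64 CPM and H3K27ac at 5.20 CPM. Without RAD21 replicate 1, which holds 35 of the RAD21 counts, the log2 difference was -5.96. This interval held no GGAATG. The CLPTM1L interval (chr5:1327082-1328536) is intronic but lies 646 bases from a start site, so it counts as a promoter, and gave 2175 and 1570 counts against 113 and 52, or 1166 CPM ± 110 against 96.1 ± 8.05 (-3.62 ± 0.23, adjusted p = 1.14e-07). It held 32 copies of GGAATG in its 1455 bases. As a promoter it was not counted with the distal repeat intervals, but with so many copies its values are uncertain too. In the SYNE1 intron (chr6:152490979-152491402), with 5 copies, eGFP-YAP gave 56 and 56 counts and RAD21 0 and 0, at least 8.56-fold higher against a floor of 3 counts per library. The SYNE1 interval has 5 copies of GGAAT in its central window. It is thus 1 of the 114 tested repeat intervals, and its values are uncertain. Near ENSG00000285529 on chromosome 10 the counts were 82 and 66 against 2 and 0, a ratio of 40.8 (exact 95% interval 11.1 to 340). An interval on chromosome X in the region shared with the Y chromosome (chrX:1887415-1888488) gave 259 and 184 counts against 15 and 0 and held 12 copies of GGAAT but none of GGAATG. The CLPTM1L interval had the most H3K27ac and CTCF of these, at 27.98 and 25.5 CPM.

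RRAS and AJUBA were also among the named eGFP-YAP intervals. RRAS encodes a small GTPase related to RAS, and its promoter (chr19:49640054-49641220) gave 82 and 39 RAD21 counts and 542 and 419 eGFP-YAP counts, 71.0 CPM ± 7.60 against 300 ± 13.9 (n = 2) and a log2 difference of -2.10 ± 0.22 (adjusted p = 2.35e-05). AJUBA encodes a LIM protein that binds LATS kinases, and an interval in its intron 579 bases from a start site gave 82 and 46 eGFP-YAP counts against 1 and 0, a ratio of 70.6 (12.5 to 2811).

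Known YAP targets had calls in both directions. Of 46 tested intervals within 10 kb of 22 target genes, 13 were higher for eGFP-YAP (28.3%) and 5 for RAD21 (10.9%), beside 15.9% and 20.7% of all tested intervals, with a median of -0.46. Of the 46, 24 were promoters without the consensus, a class in which 27.2% and 4.42% were called over all genes. Scaled to promoters without the consensus the counts were 8 and 7 and the median was 0.09. ANKRD1, a muscle ankyrin repeat protein, had 3 eGFP-YAP intervals. At its start site (chr10:90921107-90921672) RAD21 gave 17 and 5 counts and eGFP-YAP 92 and 79 (-2.11 ± 0.37, adjusted p = 7.03e-04), with H3K27ac at 2.68 CPM. Further upstream (chr10:90930214-90930921) the counts were 14 and 1 against 72 and 50 (-2.21 ± 0.48, adjusted p = 0.00277). CCN1 and CCN2, secreted matricellular proteins, were called at their promoters, with 66 and 38 against 224 and 205 counts (-1.14 ± 0.24, adjusted p = 0.00199) and 63 and 8 against 180 and 134 (-1.37 ± 0.32, adjusted p = 0.00361). A second CCN1 interval 2825 bases from the start gave 11 and 1 against 98 and 70 counts (-2.96 ± 0.45, adjusted p = 2.98e-04). All 3 ANKRD1 and both CCN1 intervals, from 2 genes picked with their values seen, held GGAATG somewhere in the interval. Counted that way, it stood in 27.1% of all tested distal intervals and 35.2% of all tested promoters. Among eGFP-YAP calls it stood in 50.1% of the distal and 41.1% of the promoter ones. The other eGFP-YAP calls were at AMOTL2, RBMS3, FOXF2, LATS2, PTPN14 and GADD45A. The AMOTL2 promoter, the list's smallest p, gave 23 and 23 against 269 and 223 counts (-2.48 ± 0.30, adjusted p = 7.17e-05). It was -1.81 without RAD21 replicate 1 and -3.18 without RAD21 replicate 2.

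The 5 RAD21 calls of the target list, named with all values seen, were distal intervals at CCDC80, CRIM1, FOXF2 and, with 2, ARHGEF17. At CCDC80 (chr3:112642807-112643315), whose CTCF consensus was printed with the sequences, the counts were 49 and 22 for RAD21 and 10 and 13 for eGFP-YAP, 41.1 CPM ± 2.73 against 7.36 ± 2.33 (n = 2), and the log2 difference was 2.47 ± 0.44 (adjusted p = 7.63e-04). FOXF2, a forkhead transcription factor gene, had both kinds. A site 7017 bases from its start gave 55 and 19 against 20 and 18 counts with CTCF at 72.1 CPM (1.78 ± 0.39, adjusted p = 0.00261), and 1 at 803 bases gave 9 and 0 against 31 and 25 (-1.85 ± 0.69, adjusted p = 0.0415).

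Calls at Hippo pathway genes were mostly for eGFP-YAP. Of 37 tested intervals at 19 genes, 14 were higher for eGFP-YAP (37.8%) and 1 for RAD21 (2.70%), with a median of -0.90. Of the 37, 27 were promoters without the consensus, a class in which 27.2% and 4.42% of tested intervals were called over all genes. Under promoter scaling the counts were 4 and 3 with a median of -0.34. The 14 covered the kinases LATS1, LATS2, STK4 and TAOK1, their partners MOB1A, MOB1B and NF2, the YAP-binding AMOTL2, the YAP competitor VGLL4, and TEAD2, TEAD3 and TEAD4. LATS2, a kinase that restrains YAP and is itself a YAP target, gave 24 and 11 against 95 and 81 counts at its promoter (-1.46 ± 0.33, adjusted p = 0.0032). An intronic VGLL4 site gave 12 and 2 against 40 and 36 (-1.63 ± 0.52, adjusted p = 0.0216). The RAD21 call was an intronic consensus site in TEAD1, with 21 and 6 against 0 and 7 counts (2.66 ± 0.87, adjusted p = 0.0243). Its adjusted p was 0.274 without eGFP-YAP replicate 1, 0.165 with GC-corrected offsets, 0.0799 by DESeq2 and 0.0626 with scaling to the weakest 25% of intervals. Without eGFP-YAP replicate 2, the library with its 7 counts, the log2 difference was 7.03.

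Genes of cohesin and CTCF themselves did not favour RAD21. Of 27 tested intervals at 15 genes, 9 were higher for eGFP-YAP (33.3%) and 3 for RAD21 (11.1%), beside 25.1% and 7.48% of all promoters, the class of 21 of the 27. The median was -0.61, and the counts were 2 and 4 with a median of -0.05 under promoter scaling. The eGFP-YAP calls were promoters of NIPBL and MAU2, which load cohesin, of SMC1A, SMC3, STAG2 and RAD21, which are ring or ring-bound subunits, of ESCO1 and ESCO2, which acetylate it, and of CTCF. At NIPBL the counts were 25 and 9 against 90 and 90 (-1.56 ± 0.33, adjusted p = 0.00239), and at ESCO1 44 and 18 against 190 and 111 (-1.40 ± 0.28, adjusted p = 0.00151). The 3 RAD21 calls were at promoters of STAG1, PDS5A and PDS5B. At PDS5A, a regulator of cohesin release, the counts were 152 and 51 against 85 and 52, 111 CPM ± 15.4 against 42.3 ± 8.90 (n = 2), with CTCF at 165 CPM (1.40 ± 0.25, adjusted p = 7.46e-04). Without eGFP-YAP replicate 2 its adjusted p was 0.0733.

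Immediate early and AP-1 genes, which respond within minutes to stimuli, had 11 eGFP-YAP (26.8%) and 3 RAD21 calls (7.32%) among 41 tested intervals, close to the 27.2% and 4.42% of all promoters without the consensus, the class of 28 of the 41. The median was -0.57 (4 and 5 with a median of -0.0018 under promoter scaling). The ATF3 promoter gave 89 and 31 against 376 and 318 counts (-1.70 ± 0.22, adjusted p = 1.02e-04) and that of JUND 83 and 30 against 320 and 261 (-1.52 ± 0.22, adjusted p = 2.14e-04). JUN was split, with its start site higher for eGFP-YAP (82 and 29 against 208 and 165 counts) and an interval 980 bases away higher for RAD21 (34 and 21 against 29 and 19). The strongest RAD21 call was at the ERCC1 promoter near FOSB, with 73 and 40 against 47 and 25 counts and CTCF at 181 CPM (1.57 ± 0.32, adjusted p = 0.00185). Without eGFP-YAP replicate 2 its adjusted p was 0.0762, and with GC-corrected offsets the difference was 0.85 (adjusted p = 0.0577).

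Imprinted genes, several of which lie at CTCF-controlled domains, had a few RAD21 calls. Of 20 tested intervals at imprinted genes, 6 were higher for RAD21 (30.0%) and 0 for eGFP-YAP, beside 20.7% and 15.9% of all tested intervals, with a median of 0.38. The calls were at IGF2 (3), CDKN1C (2) and GNAS, 4 of them in the promoter class. Within 2.5 kb of the genes, 3 of 15 intervals were called for RAD21 and the median was 0.0035. In the IGF2 growth factor locus an intron 1806 bases from a start site gave 40 and 15 against 16 and 4 counts with CTCF at 178 CPM (adjusted p = 0.00369). Near CDKN1C, a cell cycle inhibitor gene, the SLC22A18AS intron gave 52 and 19 against 19 and 15 (1.89 ± 0.40, adjusted p = 0.00217). HOX genes had 8 calls each way among 78 intervals (10.3% each, below the shares over all tested intervals), with a median of -0.16 that became 0.40 under promoter scaling. All 6 called distal HOX intervals were higher for RAD21, and 8 of the 10 called promoter ones were higher for eGFP-YAP. The classes leaned the same way over all genes. Of all tested distal intervals 5359 were called for RAD21 and 734 for eGFP-YAP, and of all tested promoters 1304 and 4369. Within 2.5 kb the counts were 3 for RAD21 and 8 for eGFP-YAP among 65 intervals, with a median of -0.29. In the HOXD cluster an intron of HOXD3 near HOXD-AS2 gave 103 and 27 against 20 and 14 counts with CTCF at 155 CPM (2.71 ± 0.35, adjusted p = 1.16e-04). The HOXD11 promoter, with H3K27ac at 240 CPM, gave 61 and 15 against 179 and 136 (-1.24 ± 0.26, adjusted p = 0.00238). Clustered protocadherins, cell surface genes chosen by promoter-enhancer loops, had 3 tested intervals of 25, with a median of -0.31 that became 0.25 under promoter scaling. The PCDHGC3 consensus site was higher for RAD21 (13 and 10 against 6 and 2 counts, 2.46 ± 0.76, adjusted p = 0.0179), and the TAF7 promoter was higher for eGFP-YAP (4 and 4 against 25 and 26 counts, a ratio of 3.52 with an exact interval of 1.66 to 8.58, adjusted p = 0.0436). The PCDHGC3 call was lost without any 1 of the 4 libraries (adjusted p as high as 0.248, without RAD21 replicate 2), and the TAF7 call without RAD21 replicate 1 (0.344) or either eGFP-YAP library (0.0856 and 0.178).

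**Figure D5:**
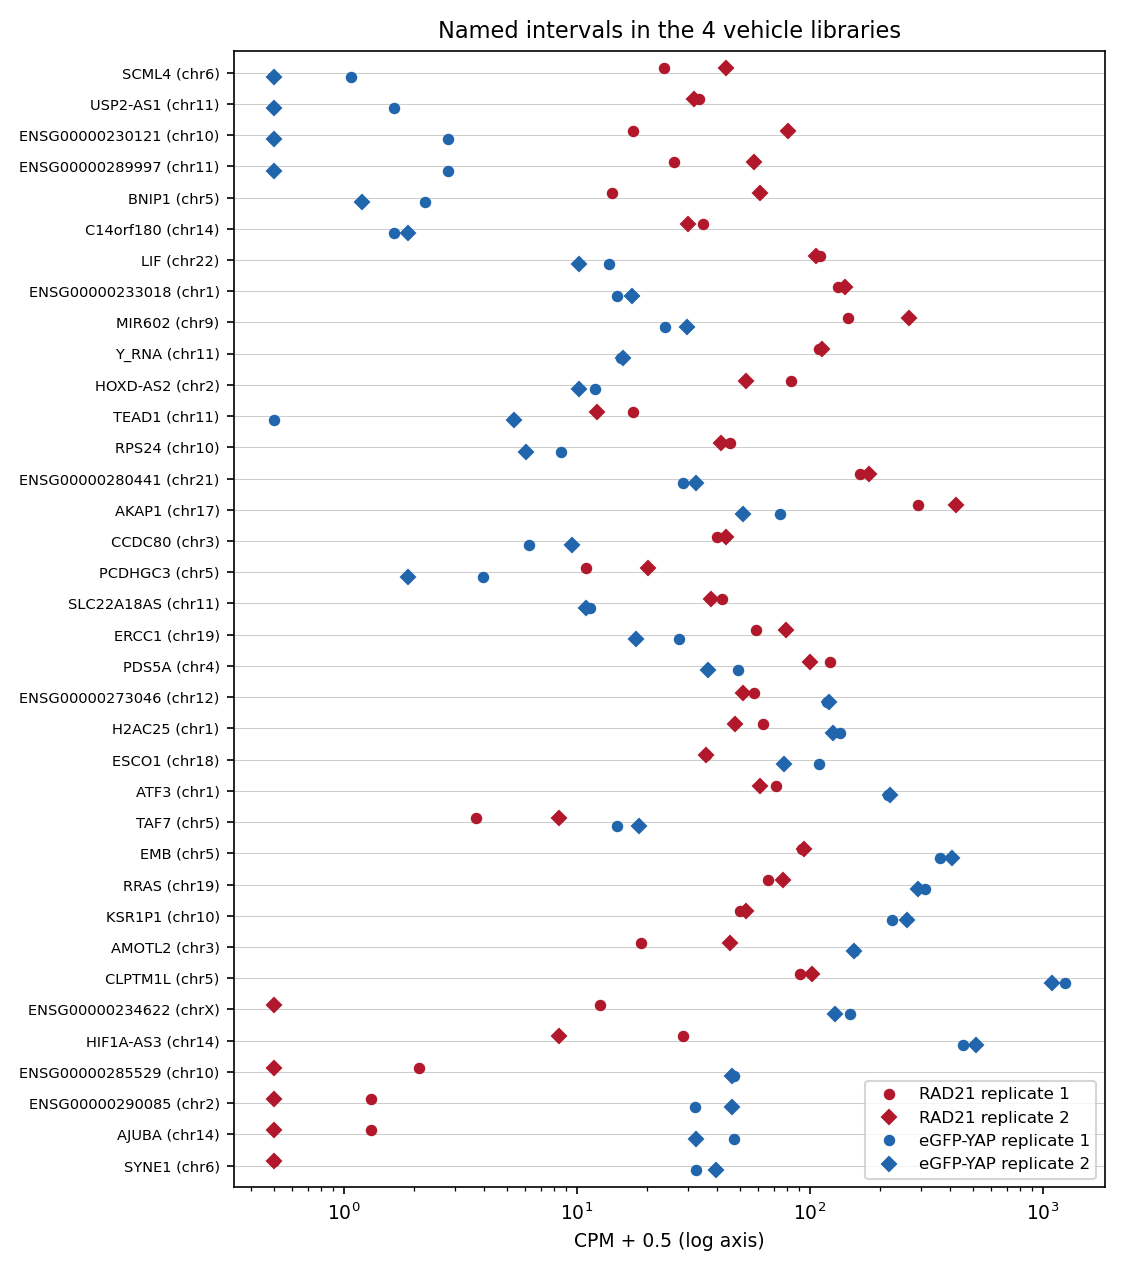
CPM plus 0.5 (horizontal log axis) in each of the 4 vehicle libraries for intervals named by size, certainty or gene list, labelled with the nearest gene and chromosome and ordered by log2 fold change. Circles are replicate 1 and diamonds replicate 2, RAD21 in red and eGFP-YAP in blue. In every row both libraries of a target lie on the same side of both of the other, which the rule required of intervals named by size or certainty.

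With sorbitol the same contrast gave fewer calls. Of 11703 tested intervals, 152 were higher for RAD21 (1.3%) and 230 for eGFP-YAP (1.97%), 3.26% in all. Of the intervals called for RAD21 in vehicle, 996 were tested in sorbitol. Of these, 62 were called again, 1 was called for eGFP-YAP, and 83.2% kept the sign. Of those called for eGFP-YAP in vehicle, 3954 were tested, 192 were called again, 14 were called for RAD21, and 68.5% kept the sign. The share of counts in distal consensus intervals was 6.397% and 6.35% for RAD21 and 4.14% and 4.05% for eGFP-YAP, against 12.8% and 11.3% and 4.94% and 4.77% in vehicle. Tested as an interaction over 8 libraries, the difference became more positive at 52 (0.24%) and more negative at 43 (0.199%) of 21642 intervals, 0.439% in all, with 3315 at an unadjusted p under 0.05. The median change was -1.15 at distal intervals with the consensus and 0.32 at promoters without it. Sorbitol libraries were also shallower in kept counts, at 0.615 and 0.520 M for RAD21 and 0.804 and 0.660 M for eGFP-YAP, and the part of depth in the lower number of calls was not tested. The HIF1A-AS3 interval kept its difference (-4.12 after sorbitol, adjusted p = 3.09e-04), as did that of CLPTM1L at a smaller size (-1.70, adjusted p = 0.00369).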

How the data were processed

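CUT&Tag counts of 2 RAD21 and 2 eGFP-YAP vehicle libraries were compared. The deposited table holds raw read counts per interval, whole numbers with no normalization. Per the submitters' processing notes the tools were Trim Galore, FastQC, BWA 0.7.17, SAMtools, Picard, bedtools 2.31.1 and MACS2 2.2.6, with build hg38. How replicates entered peak calling is not given in the sources used here. Interval starts, which count from 0, are printed 1-based, and all intervals lay within hg38 chromosome lengths.

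Intervals were annotated with GENCODE 44. The test was edgeR 4.0.16 (quasi-likelihood, TMM, filterByExpr at 10 counts, two-sided) in R 4.3.3, on the 4 libraries, with Benjamini-Hochberg adjustment over all tested intervals and calls at 0.05. CPM of RAD21 and eGFP-YAP are per 1e6 of TMM-scaled counts in tested intervals. CPM of CTCF and H3K27ac are per 1e6 of kept counts outside the intervals over 0.1% of a library, without TMM. The 2 kinds of CPM are therefore on different scales. The same fit was made for sorbitol, and a fit with the interaction of target and treatment used 8 libraries. Exact 95% intervals and floors of 3 counts cover counting error only, since PCR copies are not independent molecules. The fit was tested on data drawn with known changes in 200 of 32139 intervals, in the vehicle comparison. It recovered 8.5% of these at 2-fold and 50% at 4-fold. With so few changed intervals the Benjamini-Hochberg threshold is stricter than in the data, where 36.6% of tested intervals were called. The shares recovered therefore do not give the share of 2-fold differences missed in the data.

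The intervals named are, per direction, the 6 with the largest fold change and the 6 with the smallest p among calls with mean CPM above the median and libraries that do not overlap, and for each gene list the call with the smallest p each way, of which 1 is not reported here. Chromosome 8 was left out of this rule, though not of list calls. For sorbitol and the interaction the 3 smallest p-values per direction were taken. Members, lists and tests were chosen with earlier results of these data known. The alternatives were other scalings (DESeq2 1.42.0 size factors, total count, weakest 25% of intervals, promoters without the consensus), DESeq2 as the test, count filters, a replicate block, GC-corrected offsets, 1 fit on 16 libraries, other windows and each replicate left out. Separate values for satellite repeats, motifs by GC content, bins of fold change and chromosome 19 were added after seeing the data.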

Additional observations from a re-analysis of the deposited data

Results flagged for a closer look

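The difference between RAD21 and eGFP-YAP changed with sorbitol at a small number of intervals, by the interaction test of edgeR (adjusted p under 0.05). It became more positive at 52 intervals and more negative at 43. At the COLEC11 promoter on chromosome 2, with the scaling of the 8 libraries, RAD21 went from 57.7 and 57.5 CPM in vehicle to 450 and 475 CPM in sorbitol, while eGFP-YAP went from 171 and 182 to 97.6 and 142 CPM. The change in log2 fold change was 3.58 (adjusted p = 3.08e-06). A promoter interval of GRIN1, a glutamate receptor gene, changed by 2.74 (adjusted p = 0.00886), and 1 of CELF5, an RNA-binding protein gene, by 1.98 (adjusted p = 0.00886). In the other direction, the EHMT1 intron near MIR602 changed by -2.44 (adjusted p = 0.00987), with eGFP-YAP rising from 20.1 and 25.1 to 268 and 426 CPM and RAD21 from 144 and 270 to 599 and 528 CPM. This interval holds 21 copies of GGAAT and is 1 of the 199 intervals counted as satellite repeats by such copies, whose summed share of counts was higher with sorbitol for every target, so its values are uncertain. An intron of TAF4 changed by -5.29 (adjusted p = 0.0107), with RAD21 going from 44 and 46 counts to 1 and 2. An intron of MAPT near STH changed by -4.78 (adjusted p = 0.0107), with RAD21 going from 69 and 24 counts to 7 and 3. Leaving out 1 library raised the adjusted p of the STH interval as far as 0.0528.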

How the results depend on the processing

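Calls in vehicle for RAD21 and eGFP-YAP were 6663 and 5103. They moved to 3668 and 10915 with scaling to the weakest 25% of intervals and to 10426 and 1372 with scaling to promoters without the consensus. DESeq2 called 3803 and 3093, and a mean of at least 50 counts left 798 and 391, where fewer intervals were tested. The calls for RAD21 and eGFP-YAP were 4874 and 7766 with no count filter and 4913 and 3218 with GC-corrected offsets. Leaving out 1 replicate gave 2752 to 5122 and 2887 to 6459. In sorbitol, RAD21 calls were 287 with scaling to the total count, 260 with no filter and 91 with DESeq2, and 195 to 249 with 1 replicate left out (264 to 338 for eGFP-YAP). Interaction calls toward RAD21 were 266 with scaling to the total count, 353 with no filter and 21 with GC-corrected offsets. Those toward eGFP-YAP were 87 with no filter, 115 at a mean of 50 counts and 119 with DESeq2. Leaving out 1 replicate gave 37 to 252 and 18 to 81, with the highest values without RAD21 sorbitol replicate 1 and the lowest of the latter without eGFP-YAP vehicle replicate 2.

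With the replicate number as a block the vehicle calls were 6128 and 4890 and the interaction calls 33 and 35. With the block and GC-corrected offsets they were 4036 and 2798 in vehicle and 17 toward RAD21 for the interaction. Across intervals, libraries of the same number did not deviate together (correlation 0.000615 in vehicle and -0.00564 in sorbitol). Counting error can hide such a correlation. It therefore cannot show whether same-numbered libraries share a culture or batch, which the labels do not say.

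The median differences of promoter against distal and consensus against none kept their direction. They were -1.13 and 1.28 with no filter, -0.59 and 0.43 at a mean of 50 counts, -0.93 and 1.08 with GC-corrected offsets, -0.96 and 1.11 with the block as well, and -1.61 to -1.34 and 1.41 to 1.55 with 1 replicate left out. The difference in share of counts at distal consensus intervals was 6.14 percentage points with promoters of 2.5 kb, 2.16 with a perfect consensus, 9.18 without intervals over 0.1% of a library and 6.42 to 7.93 with 1 replicate left out. For promoters it was -17.0 at 2.5 kb and -20.3 to -17.1 with 1 replicate left out. In whole intervals the CTCF consensus stood in 49.7% of RAD21 calls, beside 23.02% of all tested intervals. Counted the same way, GGAATG stood in 50.1% of distal eGFP-YAP calls, beside 27.1% of all tested distal intervals. Both GGAATG shares include the satellite-repeat intervals. The correlations with CTCF and H3K27ac became 0.51 and -0.17 at a mean of 50 counts. Scaled to promoters, the medians of YAP targets, protocadherins and HOX genes reversed to 0.0874, 0.25 and 0.40. Of the values of 37 named intervals under the alternatives, 545 kept direction and call, 26 lost the call and 0 reversed. The cause of these shifts was not tested.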

Other observations

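Chromosome 19, which is dense in genes and in zinc finger genes, differed from the others. Of its 2014 tested intervals, 203 were higher for RAD21 (10.1%) and 464 for eGFP-YAP (23.04%), while on the other chromosomes the share higher for RAD21 ran from 17.1% to 26.4%. Promoters made up 62.8% of its tested intervals against 53.65% elsewhere. The difference was also present inside each class. Of its 749 distal intervals, 20.3% were higher for RAD21 with a median log2 fold change of 0.32, against 37.3% and 1.08 on the other chromosomes, although more of them held the CTCF consensus (43.8% against 32.0%). Of its 1265 promoters, 32.3% were higher for eGFP-YAP against 24.5% elsewhere. The 152 zinc finger promoters on the chromosome had a median of -0.70 and its other promoters -0.69. These values were looked at after the calls per chromosome were known and carry no test.

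The share of counts was higher with sorbitol in the 199 satellite-repeat intervals for every target, with no overlap between the treatments. It went from 0.178% and 0.201% to 0.464% and 0.397% for RAD21 and from 0.410% and 0.445% to 1.46% and 1.285% for eGFP-YAP. CTCF went from 0.0646% and 0.0683% to 0.267% and 0.253%, while H3K27ac went from 0.01765% and 0.0189% to 0.0250% and 0.0241%. The 3 sorbitol intervals with the smallest p toward eGFP-YAP, near IGHV1OR21-1, KSR1P1 and IGKV2D-40, lie on stretches around centromeres. At the KSR1P1 interval eGFP-YAP gave 661 and 439 counts and RAD21 79 and 50 after sorbitol (log2 fold change -2.89, adjusted p = 1.25e-04). Toward RAD21 the 3 were intervals near UICLM (61 and 65 against 4 and 2 counts), MUC2 (163 and 78 against 5 and 8) and TCERG1L (50 and 38 against 0 and 0).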
